A study of Homo sapiens with 6 samples.

Results

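Cytosolic ribosomal protein genes encode the proteins of the large and the small ribosomal subunit, and they were examined here in HT-29 cells after 5-Aza treatment. Members were all genes with a ribosomal protein symbol (RPL or RPS with a number, RPLP0 to RPLP2 and RPSA) for which the annotation pairs a probe set with that symbol alone, and each was represented by its probe set with the highest mean signal over the 6 arrays. The rule looked at brightness only and not at the difference between the groups. It gave 59 members out of 19775 genes, 38 of the large and 21 of the small subunit, of which 7 were paralogs with a restricted or less studied role (RPL3L, RPL7L1, RPL10L, RPL22L1, RPL26L1, RPL39L and RPS27L). RefSeq (GRCh38.p14) holds 84 protein-coding genes with such symbols. The other 25, among them RPL5, RPLP0 and RPSA, were not used here, and 15 of them were found only on probe sets that share several symbols.

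HT-29 is a human colorectal adenocarcinoma cell line, and 5-Aza (5-aza-2'-deoxycytidine) is a cytidine analog that traps DNA methyltransferases once it is built into DNA. The treated group had 3 arrays of cells kept for 72 h with 5-Aza at 10 µM, the control group had 3 arrays of cells given the solvent, water with acetate, and both were cultured in medium free of fetal calf serum. Total RNA was hybridized to HGU133 Plus2.0 microarrays, on which a probe set is a group of short oligonucleotides that together give 1 signal. The labels number the arrays of a group from 1 to 3, and no source gives the cultures behind them. All p-values therefore rest on the spread among 6 arrays of 1 cell line, which may be technical.

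Ribosomal proteins are needed in near-equal amounts for a particle that is assembled mostly in the nucleolus, and their mRNAs are among the most abundant of a growing cell. Most of these mRNAs begin with a terminal oligopyrimidine (TOP) tract, a C at the first base followed by a run of C and T, through which mTOR signalling and LARP1 control their translation together. Free ribosomal proteins such as RPL11 can also bind MDM2 and stabilise p53.

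The TOP tract was looked for in the RefSeq start sites of the GRCh38.p14 assembly, as a C at the start followed by at least 4 bases of C or T on the strand of the gene. Of the 59 members, 51 had a start site in the table, and 35 of them (68.6%) had the tract at 1 start or more, against 5.14% of 27305 genes. Windows of 30 bases are printed for the genes on which the comparisons below turn, with 15 bases before the start and the tract in capitals. RPS6, the target of the S6 kinases, RPL11, RPL37A and RPL36A show it (of the start sites of RPL11, the window with the tract is printed).
RPS6, chr9:19380222-19380251, minus strand: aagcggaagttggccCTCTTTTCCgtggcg
RPL11, chr1:23691791-23691820, plus strand: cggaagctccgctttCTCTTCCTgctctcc
RPL37A, chr2:216498829-216498858, plus strand: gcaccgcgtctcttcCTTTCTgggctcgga
RPL36A, chrX:101390996-101391025, plus strand: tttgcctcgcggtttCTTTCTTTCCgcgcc
Paralogs and their parent genes can be set side by side for RPS27 and RPL22. RPS27 has the tract and RPS27L does not, while both RPL22 and RPL22L1 have it.
RPS27, chr1:153990747-153990776, plus strand: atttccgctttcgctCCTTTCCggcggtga
RPS27L, chr15:63157463-63157492, minus strand: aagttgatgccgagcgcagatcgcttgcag
RPL22, chr1:6199581-6199610, minus strand: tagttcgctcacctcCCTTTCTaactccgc
RPL22L1, chr3:170870181-170870210, minus strand: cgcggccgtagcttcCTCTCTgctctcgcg
RPL7L1 and RPL26L1 are shown as further paralogs whose window has no tract.
RPL7L1, chr6:42879601-42879630, plus strand: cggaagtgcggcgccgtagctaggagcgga
RPL26L1, chr5:172958714-172958743, plus strand: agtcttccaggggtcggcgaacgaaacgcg
Of 5 paralogs with a start site, RPL22L1 was the 1 with a tract. In the 300 bases around the start (250 before and 50 after) members held a median of 23 CpG, ranging from 2 to 44, against a median of 14 over all start sites. The match depends on the exact annotated start base. RPL19, with a run of C and T across a start, and RPL10A, with one just after it, were counted as without the tract. A sequence match is a description of these letters and not of regulation in these cells.

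No member, read by its brightest probe set, passed the test for a difference between 5-Aza-treated and control cells, in either direction. At an adjusted p under 0.05 (limma, Benjamini-Hochberg over 54614 probe sets) 0 of 59 members were called, against 0% of all probe sets. At an unadjusted p under 0.025, the level at which the study took genes as higher after 5-Aza (there by SAM and among the largest increases) and which was applied here in both directions, 0 members were higher, against 2.97% of all probe sets, and 0 were lower, against 1.05%. A single member, RPL36A, had an unadjusted p under 0.05. The smallest adjusted p among the members was 0.627 by limma. The 5 members RPL27, RPL27A, RPL36A, RPL37 and RPS27 had every 5-Aza array above every control array, against 9.29% of all probe sets, and RPL26L1 alone had every 5-Aza array below, against 5.22%.

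The probe sets that represent the members were chosen as the brightest of each gene, so their brightness is a description. Of the 59 members, 50 were among the 546 probe sets (1%) with the highest mean signal, and 51 had a mean signal of 10000 or more. The 61 further probe sets of the members had a median of 954.6. Probe sets differ in how well they bind, so a signal is not compared here between genes as a level of mRNA. RPS23, which lines the decoding centre of the small subunit, was the brightest, with signals of 62000.3, 64102.8 and 61991.4 in 5-Aza-treated cells and 58822.6, 63253.5 and 46175.0 in control cells. The groups overlapped, with control replicate 3 the lowest of the 6 arrays, and the log2 fold change was 0.17 with a standard error (SE) of 0.18.

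RPL31, which lies at the rim of the exit tunnel of the large subunit, had signals of 54418.5, 62298.8 and 56411.5 in 5-Aza-treated cells, against 53900.7, 59586.5 and 43866.3 in control cells. Its log2 fold change was 0.15 (SE 0.18). RPS19, the gene most often mutated in Diamond-Blackfan anemia, had 55599.6, 56220.3 and 56059.1 in 5-Aza-treated cells and 52761.5, 63586.8 and 45211.7 in control cells (log2 fold change 0.07, SE 0.18). In both genes the groups overlapped, and the lowest value was again that of control replicate 3.

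**Figure D1:**
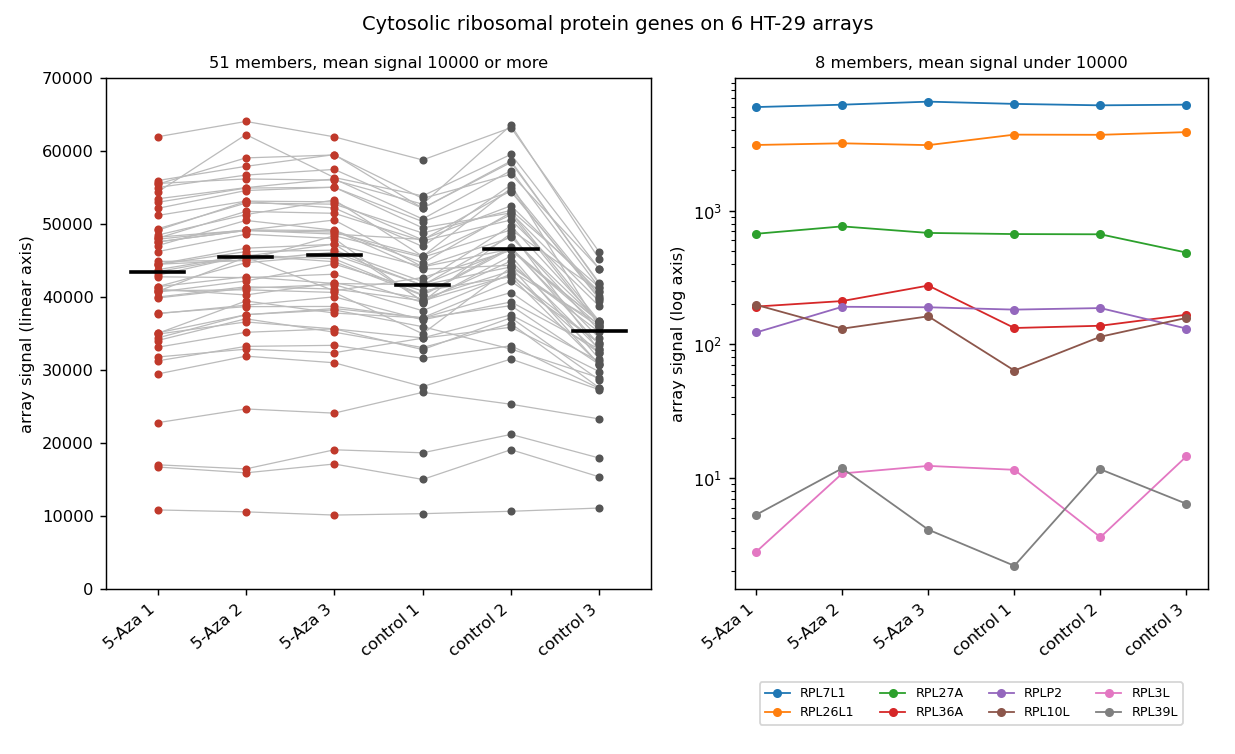
Signal of each ribosomal protein gene on each array, with 51 members of mean signal 10000 or more on a linear axis (left; each point is a gene, grey lines join a gene's arrays and black bars are the median of these genes) and the 8 dimmer members on a log axis (right). The median of the bright members is lowest on control replicate 3, which is the lowest array for 48 of all 59 members (RPS27L, RPL22L1, RPL36 and RPL14 are bright members for which it is not), while the dim members show no common order of the arrays.

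The median log2 fold change of the members was 0.13, with 51 positive and 8 negative values as deposited, but it was -0.0088 with 24 positive values after quantile normalization and -0.055 with 9 positive values after each array was centred on its median. Over all probe sets the median was 0.062 as deposited, -0.0074 after quantile normalization and -0.125 after median centring. Quantile normalization gives all arrays the same set of signal values, so a shift shared by most of the brightest probe sets is removed whatever its source. Most members are among the brightest probe sets, so their median after it is not a separate test of a common shift. The quartiles of the members lay at 0.054 and 0.17. The 95% interval of limma included 0 for 58 of the 59 members. For the 51 bright members the fold changes ran from -0.14 to 0.26, and all their intervals lay within -0.52 and 0.75 on the log2 scale.

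The size of the small positive median depended on which control array was left out, and the source of this was not tested. The median member signal was 41449.5, 42800.0 and 43158.2 on the 5-Aza arrays, against 39817.9, 44384.1 and 33672.9 on the control arrays. Control replicate 3 was the lowest of the 6 arrays for 48 of 59 members (17.5% of all probe sets were lowest there), and control replicate 2 was the highest for 30 members. Without control replicate 3 the median log2 fold change of the members was 0.024, with 39 positive values. Without control replicate 2 it was 0.22.

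Control replicate 3 lay below both other controls for 51 members, against 29.3% of all probe sets. The median distance on the log2 scale from the mean of control replicates 1 and 2 was -0.32 for the members and 0.058 for all probe sets. Within the members this distance was more negative for brighter probe sets (Pearson r of -0.75 and Spearman rho of -0.62 over 59 members). The members share the same 3 arrays, so no p is given. The dim members RPL3L (1.03) and RPL10L (0.88) had the largest positive distances, and a correlation without the dim members was not computed. The 23 other genes at least as bright as the lower quartile of the members (mean signal of 33319.2) had a median distance of -0.30 and a median log2 fold change of 0.15 as deposited, positive in all 23, and of 0.0071 after quantile normalization.

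The spiked hybridization controls, which do not come from the cells, were also lowest on control replicate 3. Their mean signal was 9926, 11951.8 and 12355.4 on the 5-Aza arrays and 9872, 10669.9 and 5826 on the control arrays. The members held 4.71%, 4.85% and 4.83% of all signal on the 5-Aza arrays, against 4.58%, 4.87% and 4.02% on the control arrays. A measure of RNA quality differed between the groups instead, without overlap. The log2 signal of the 3' probe set of ACTB exceeded that of the 5' probe set by 0.75, 0.64 and 0.80 on the 5-Aza arrays and by 0.46, 0.57 and 0.60 on the control arrays, where control replicate 3 was the highest. The part of these readouts in the results was not tested.

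**Figure D2:**
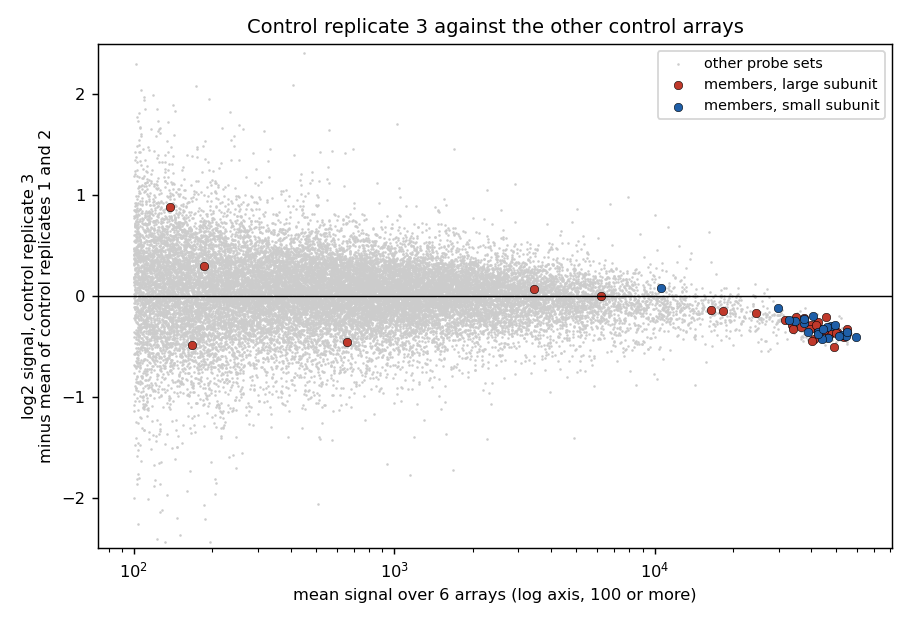
Log2 signal of control replicate 3 minus the mean of control replicates 1 and 2 (vertical axis) against the mean signal over 6 arrays (log axis), for members of the large (red) and small subunit (blue) and other probe sets with a mean of 100 or more (grey). Members of mean signal 10000 or more lie below 0, RPS27L excepted, with a median of -0.32 over all 59 members, within the same downward trend as the other bright probe sets.

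Groups of members were described by their medians, and differences between the groups were not tested. The 32 large subunit genes without paralogs had a median log2 fold change of 0.13 as deposited and -0.011 after quantile normalization, and the 20 small subunit genes had 0.15 and -0.0089. The 35 genes with a TOP tract had a median of 0.14 and the 16 without it had 0.11, which was -0.017 and -0.0031 after quantile normalization. The 16 include the paralogs RPL7L1, RPL10L, RPL26L1 and RPS27L, and genes such as RPL19 with a run of C and T at or near the start. These medians are therefore not read as a contrast of TOP mRNAs with others. Genes represented by a probe set that may cross-hybridize (_x_at, 14 genes) had a median of 0.11, and the other 45 had 0.14.

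RPL11 forms a particle with RPL5 and a small ribosomal RNA that binds MDM2. Its signals were 35039.3, 39489.8 and 37833.1 in 5-Aza-treated cells and 37147.0, 38848.2 and 30788.8 in control cells. The groups overlapped, and the log2 fold change was 0.079 (SE 0.16), or -0.022 without control replicate 3. Of the genes around this particle that were measured (MDM2, MDM4, CDKN1A and HEATR3) 0 of 4 were called in either direction at an unadjusted p under 0.025. At that level 2.97% of all probe sets were higher and 1.05% were lower, so a count over 4 genes is not read further. MDM2 averaged 1092 ± 63.2 in 5-Aza-treated cells and 979 ± 98.4 in control cells (SD, n = 3 each).

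The stalk of the large subunit, which recruits translation factors, was represented by RPLP1, RPLP2 and RPL12 at its base. RPLP1 had signals of 51211.1, 53179.1 and 53079.4 in 5-Aza-treated cells, against 47861.2, 54621.6 and 39754.7 in control cells (log2 fold change 0.16, SE 0.17). RPL12 had 40021.0, 41435.5 and 41127.5 in 5-Aza-treated cells, against 39519.6, 42982.5 and 33672.9 in control cells (log2 fold change 0.085, SE 0.16). Both followed the common pattern, with control replicate 2 highest and control replicate 3 lowest. RPLP2 was read only by a dim probe set, at 122.6, 190.8 and 189.2 in 5-Aza-treated cells and 181.7, 186.6 and 131.1 in control cells, and had a log2 fold change of -0.002 (SE 0.26).

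RPS6 had signals of 49377.4, 52910.1 and 52760.7 in 5-Aza-treated cells and 48808.1, 51927.1 and 41354.6 in control cells (log2 fold change 0.13, SE 0.16). Its 5-Aza signals overlapped those of control replicates 1 and 2. Among the genes that line the exit tunnel (6 measured of 9 listed, such as RPL19, RPL35 and RPL39) the median was 0.14, and among those of the mRNA channel and decoding centre (4 of 6, RPS3, RPS9, RPS15 and RPS23) it was 0.076. After quantile normalization these medians were 0.0043 and -0.080. The 6 of 9 listed genes mutated in Diamond-Blackfan anemia that were measured had a median of 0.092 as deposited and -0.048 after quantile normalization. No gene of these groups was called at an unadjusted p under 0.025 (2.97% of all probe sets were higher and 1.05% lower).

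**Figure D3:**
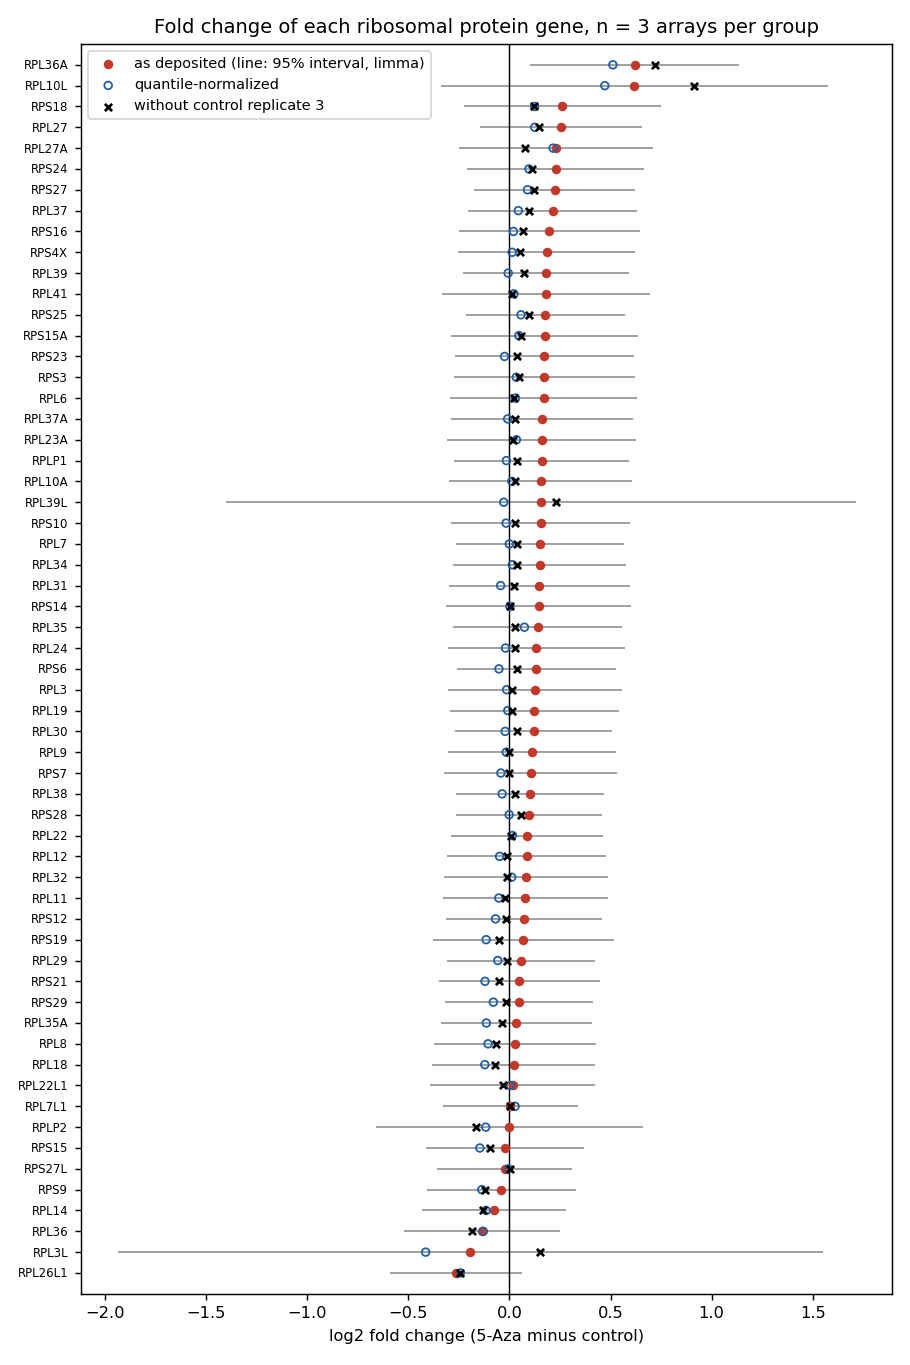
Log2 fold change (5-Aza minus control, horizontal axis) of each of the 59 ribosomal protein genes as deposited (red, with the 95% interval of limma, n = 3 arrays per group), after quantile normalization (blue circles) and without control replicate 3 (crosses). Values are mostly positive as deposited (51 of 59), while 24 are positive after quantile normalization and 39 without control replicate 3, and the interval of RPL36A alone leaves out 0. Quantile normalization removes a shift shared by most of the brightest probe sets.

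Of the members, RPL36A and RPL26L1 had the smallest unadjusted p in limma without a variance trend. RPL36A, a large subunit protein near the exit site for tRNA, had 1 probe set with its symbol alone, and that probe set was dim. Its signals were 191.5, 210.6 and 275.0 in 5-Aza-treated cells, against 132.4, 137.6 and 166.4 in control cells. Every 5-Aza array lay above every control array, and the log2 fold change was 0.62 (SE 0.21, 95% interval from 0.10 to 1.14, limma unadjusted p = 0.0268, adjusted p = 0.627). In limma the unadjusted p was 0.0214 with 16 added in place of 1, and 0.0212 with a variance trend (adjusted p = 0.486). After quantile normalization it was 0.0507, after median centring 0.0816 and after centring on the members 0.118 (limma, adjusted p not under 0.05), and with each array left out in turn it lay between 0.0293 and 0.0785.

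The other members with every 5-Aza array above every control array were RPL27, RPL27A, RPL37 and RPS27. RPL27, a protein of the large subunit, had signals of 47947.0, 49229.1 and 49142.5 in 5-Aza-treated cells, against 43839.7, 44384.1 and 35218.6 in control cells. Its log2 fold change was 0.25 (SE 0.16) as deposited, 0.13 after quantile normalization and 0.14 without control replicate 3. The unadjusted p in limma was 0.168, or 0.376 after quantile normalization. With a variance trend in limma it was 0.0148 (adjusted p = 0.455). RPS27, a zinc finger protein of the small subunit, had 48239.7, 49191.3 and 50586.9 in 5-Aza-treated cells, against 44161.7, 46607.5 and 36631.5 in control cells (log2 fold change 0.22, SE 0.16, and 0.12 without control replicate 3). In both genes control replicates 1 and 2 lay just under the 5-Aza arrays and control replicate 3 far under them.

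RPL37 had 52183.6, 54631.3 and 55086.8 in 5-Aza-treated cells and 49511.8, 51567.8 and 39421.0 in control cells (log2 fold change 0.21, SE 0.17). After quantile normalization its value was 0.044 and the groups overlapped. Of the further probe sets of RPL37, those with mean signals of 2440 and 2539 had every 5-Aza array below every control array, with log2 fold changes of -0.41 (SE 0.16, limma unadjusted p = 0.0474, adjusted p = 0.684) and -0.26 (SE 0.16), and the remaining one had 0.054 (SE 0.20). RPL27A, read by a dim probe set, had 671.2, 762.5 and 681.1 in 5-Aza-treated cells and 667.8, 665.3 and 485.4 in control cells (log2 fold change 0.23, SE 0.19). Its lowest 5-Aza array and its highest control array nearly met, and without control replicate 3 the value was 0.078. After quantile normalization 5 members (RPL27, RPL36A, RPS18, RPS24 and RPS27) had every 5-Aza array above (7.13% of all probe sets did), and 6 members had every 5-Aza array below (6.86%), namely RPL26L1, RPL35A, RPL8, RPS15, RPS19 and RPS21.

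RPL26L1, a paralog nearly identical in protein to RPL26, had signals of 3100, 3191 and 3092 in 5-Aza-treated cells and 3705, 3693 and 3870 in control cells. The groups did not overlap, and the replicates of each lay close together. The log2 fold change was -0.26 (SE 0.13, limma unadjusted p = 0.0947, adjusted p = 0.747). It was -0.24 both after quantile normalization and without control replicate 3. With a variance trend in limma the unadjusted p was 0.0105 (adjusted p = 0.425), and after median centring it was 0.0177. With quantile normalization it was 0.110, with the arrays centred on the members 0.112 and with each array left out in turn between 0.115 and 0.200 (limma, adjusted p not under 0.05).

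The other paralogs were not called. RPL22L1, the paralog of RPL22, had signals of 16724.5, 15927.4 and 17137.5 in 5-Aza-treated cells and 15021.0, 19099.2 and 15371.7 in control cells (log2 fold change 0.017, SE 0.16). RPS27L, known as a p53 target, had 10840.9, 10579.1 and 10137.0 in 5-Aza-treated cells and 10327.6, 10654.5 and 11100.7 in control cells (log2 fold change -0.024, SE 0.13). Control replicate 3 was not the lowest array for RPS27L but the highest. Its dimmer probe sets had log2 fold changes of 0.34 (SE 0.14, every 5-Aza array above every control array) and 0.27 (SE 0.19), and the mean over all its probe sets gave 0.19, so the value depends on the probe set.

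RPL7L1, which takes part in the assembly of the large subunit, had 5958, 6206 and 6541 in 5-Aza-treated cells and 6292, 6138 and 6209 in control cells (log2 fold change 0.0041, SE 0.13). RPL10L, a retrocopy of RPL10 active in the testis, had 197.2, 130.9 and 161.9 in 5-Aza-treated cells, against 63.6, 113.9 and 157.6 in control cells. These arrays overlapped, and the log2 fold change of 0.62 had an SE of 0.38. The muscle gene RPL3L (2.8, 10.8 and 12.3 in 5-Aza-treated cells, against 11.5, 3.6 and 14.5 in control cells) lay under the highest signal of the TrpnX control probe sets of the array, which was 42. So did RPL39L, at 5.3, 11.8 and 4.1 in 5-Aza-treated cells and 2.2, 11.6 and 6.4 in control cells.

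Because a paralog and its parent gene are read on the same array, their log2 difference within each array was compared between the groups for the 5 pairs with both members. RPS27L minus RPS27 was -2.15, -2.22 and -2.32 in 5-Aza-treated cells and -2.10, -2.13 and -1.72 in control cells. The 2 groups did not overlap, and the difference of -0.25 had the smallest p that 3 against 3 arrays allow (two-sided exact permutation p = 0.1, adjusted over 5 pairs 0.5). It was -0.12 without control replicate 3, which was low for RPS27 and not for RPS27L.

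RPL22L1 minus RPL22 was -0.90, -1.06 and -0.96 in 5-Aza-treated cells and -1.07, -0.80 and -0.84 in control cells, and the difference of -0.070 was within the spread (exact permutation p = 0.6, adjusted 0.75). RPL22 was read there by an _x_at probe set, and without such probe sets the difference was 0.098 (exact permutation p = 0.7). For RPL7L1 minus RPL7 the difference was -0.15 (exact permutation p = 0.3, adjusted 0.75), or -0.034 without control replicate 3. The other two pairs, RPL3L with RPL3 and RPL39L with RPL39, rest on signals under 42 for the paralog, so their differences are not read here.

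Beside the representative probe sets, 61 further probe sets read 34 of the members, at signals from 6.18 to 50893.2. Of these, 1 was higher (against 2.97% of all probe sets) and 1 was lower (against 1.05%) at an unadjusted p under 0.025, and 0 at an adjusted p under 0.05 by limma. RPL37A, a zinc finger protein of the large subunit, had a second probe set, of the _x_at kind that may cross-hybridize, at 1752, 1763 and 1965 in 5-Aza-treated cells, against 1137, 1036 and 806.4 in control cells. Every 5-Aza array was higher, and the log2 fold change was 0.89 (SE 0.19, limma unadjusted p = 0.00415, adjusted p = 0.436), 0.90 after quantile normalization and 0.75 without control replicate 3. With a variance trend in limma the unadjusted p was 2.94e-05 (adjusted p = 0.0593, not under 0.05). The study lists this probe set among its candidates, a choice made on these same arrays, so it is not independent evidence of the direction.

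The bright probe set of RPL37A did not share that difference. Its signals were 55042.6, 56749.7 and 57525.1 in 5-Aza-treated cells and 52200.2, 58680.8 and 41804.8 in control cells (log2 fold change 0.16, SE 0.18) as deposited and -0.0088 after quantile normalization. The third probe set of RPL37A had a log2 fold change of -0.10 (SE 0.18). The difference between the probe sets was not tested.

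RPS28, a small subunit protein near the exit of the mRNA channel, had a dim probe set that was lower, at 394.9, 403.6 and 479.2 in 5-Aza-treated cells, against 586.4, 622.5 and 716.4 in control cells. The groups did not overlap, and the log2 fold change was -0.59 (SE 0.17, limma unadjusted p = 0.0145, adjusted p = 0.573). The bright probe set of RPS28 had 29477.3, 31925.9 and 31015.7 in 5-Aza-treated cells and 27748.0, 31527.5 and 27323.9 in control cells (log2 fold change 0.096, SE 0.14). The 40 further probe sets with a mean signal under 5000 had a median log2 fold change of 0.056, with 22 positive, and a median distance of control replicate 3 from the other controls of 0.023.

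Other genes of the translation apparatus were set beside the members, as lists written with earlier results of these data known. In all of them 0 genes were called at an unadjusted p under 0.025 in either direction by limma. Of all probe sets 2.97% were higher and 1.05% were lower at that level. FAU and RPL36AL, ribosomal protein genes whose symbols are outside the rule, had log2 fold changes of 0.027 (SE 0.16) and -0.043 (SE 0.14). Translation factors and other genes known for TOP mRNAs (13 measured of 15) had a median of -0.040, with 6 positive and 7 negative. EEF1A1, the elongation factor that delivers tRNA, was as bright as the ribosomal proteins, with 56649.7 ± 2856 in 5-Aza-treated cells and 47221.7 ± 8326 in control cells (SD, n = 3 each) and a log2 fold change of 0.28 (SE 0.19).

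The initiation factors (23 measured of 24) had a median of -0.022. EIF3D, a subunit of the initiation factor complex that binds the small subunit, came nearest to a call there, with 8129 ± 223 in 5-Aza-treated cells and 10383.2 ± 476 in control cells (SD, n = 3 each; log2 fold change -0.35, limma unadjusted p = 0.0432, adjusted p = 0.676). Genes of ribosome biogenesis (32 of 38) had a median of -0.061, with 11 positive and 21 negative, and NOB1, the nuclease that trims the rRNA of the small subunit, had 2508 ± 174 in 5-Aza-treated cells and 3284 ± 285 in control cells (SD, n = 3 each; log2 fold change -0.39, limma unadjusted p = 0.0465, adjusted p = 0.681). Both genes were named after their values were seen.

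Genes that control translation (17 of 17, among them MTOR, LARP1 and the S6 kinases) had a median of -0.084. MYC, a transcription factor that drives ribosome production, had 11910.9, 12539.9 and 11217.2 in 5-Aza-treated cells and 15652.1, 16052.1 and 13079.7 in control cells. Every 5-Aza array lay below every control array, with a log2 fold change of -0.32 (SE 0.16, limma unadjusted p = 0.0894), and MYC too was named after its values were seen. After quantile normalization the medians were -0.047 for the TOP genes, -0.0052 for the initiation factors, -0.052 for ribosome biogenesis and -0.099 for translational control, all on the same side of 0 as before.

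**Figure D4:**
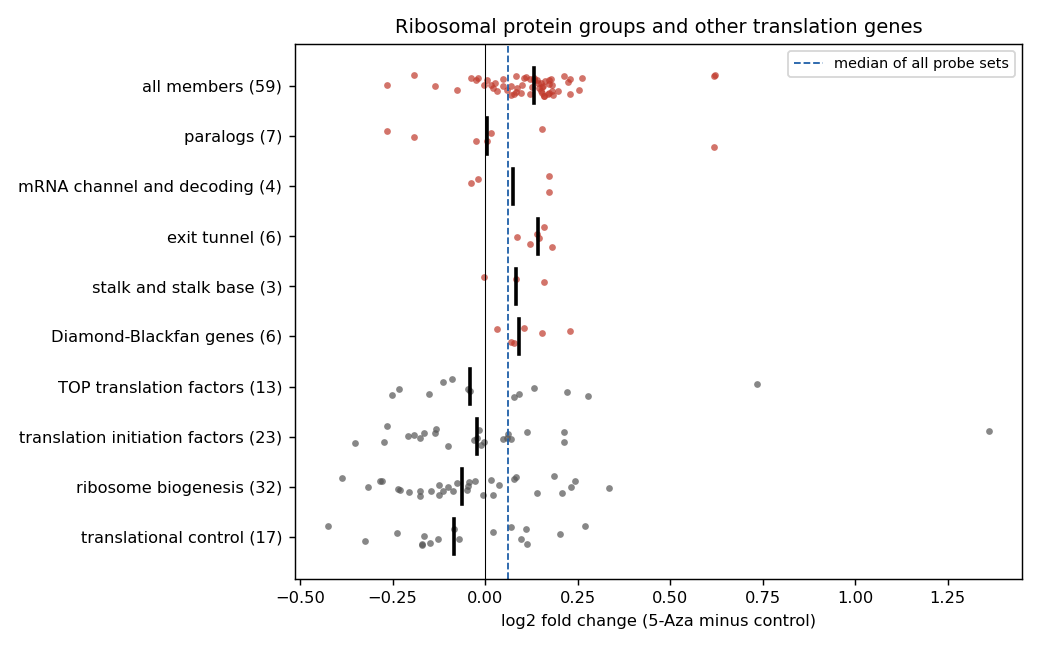
Log2 fold change (5-Aza minus control, horizontal axis) of ribosomal protein groups (red) and other translation genes (grey), each point a gene and each black bar the median of its list, with the number of genes in brackets. As deposited the members' median of 0.13 lies right of the median of all probe sets (dashed, 0.062), and after quantile normalization these are -0.0088 and -0.0074. That normalization removes a shift shared by most of the brightest probe sets.

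As a check of the cell type, 8 of 10 colon epithelium markers had mean signals of 2913 or more in 5-Aza-treated cells and 3354 or more in control cells, the lowest being VIL1. KRT18 had 36196.5 ± 1345 in 5-Aza-treated cells and 36086.3 ± 6746 in control cells (SD, n = 3 each). CDX2 and CDH17 lay around the highest TrpnX signal of 42, at 42.7 and 27.5 in 5-Aza-treated cells and 75.8 and 38.5 in control cells. Markers of other cell types had mean signals from 13.1 to 340 in the groups, and VWF was the 1 of 10 that was called, at 55.2 ± 26.6 in 5-Aza-treated cells and 13.1 ± 6.56 in control cells (SD, n = 3 each; limma unadjusted p = 0.015). At an unadjusted p under 0.025, 2.97% of all probe sets were higher.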

How the data were processed

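RNA of 6 HT-29 cell samples, 3 treated with 5-Aza and 3 solvent controls, was hybridized to HGU133 Plus2.0 microarrays. The deposited values are linear intensity values, 1 for each of 54675 probe sets and array, made by the authors with the affy package (its version, the background correction and the summary method are not given in the sources used here). On each array the mean, leaving out 2% of probe sets at each end, was 500, so the arrays had been scaled. The sample labels give 3 µg of RNA and another extraction kit than the methods of the study.

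Members and gene lists were chosen with earlier results of these data known. After 61 control probe sets were left out, log2(signal + 1) of 54614 probe sets was fitted with limma 3.58.1 in R 4.3.3 (group as the only term, empirical Bayes variance) with Benjamini-Hochberg adjustment over all of them. Calls were read at an adjusted p under 0.05 and at an unadjusted p under 0.025. The study used that level for increases only, by SAM and with a rank on the fold change, which were not run here. Symbols came from the platform annotation, in which 41091 of the tested probe sets have 1 symbol. Paralogs and parents were compared by an exact two-sided permutation test of 3 against 3 arrays, whose p cannot fall below 0.1. Start sites came from RefSeq.

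Named in the text were all members past the threshold, the paralog, stalk and RPL11 genes, RPS6, RPL37A, the 3 members with the highest and the 3 with the lowest signal, and any called gene of the other lists. RPSA was not a member. RPL36A, RPL27, RPL27A, RPL37, RPS27, RPS18, RPS24, RPL35A, RPL8, RPS21, RPL14, RPL36, RPL26L1, RPS28, FAU, RPL36AL, EEF1A1, MDM2, EIF3D, NOB1 and MYC were added after their values were seen.

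On simulated data with 200 of 54614 probe sets changed, limma recovered 7.2%, 67.6%, 97.2% and 100% of log2 changes of 0.25, 0.5, 1 and 2 at an unadjusted p under 0.025, and 0%, 0%, 0% and 55.2% at an adjusted p under 0.05. The changed probe sets were drawn from those above the upper quartile of mean control signal, with independent noise for each probe set and array. A shift shared by many probe sets of an array was not simulated. These shares therefore do not cover dim probe sets or members that move together. The number of arrays limits the precision. Alternatives were quantile normalization, median centring, 16 added in place of 1, a filter above the median, a variance trend, no _x_at probe sets, the mean of all probe sets, a block and leaving out each array. Centring on the members, and quantile normalization without each array in turn, were chosen after the data had been seen.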

Additional observations from a re-analysis of the deposited data

How the results depend on the processing

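No member passed an adjusted p under 0.05 under any alternative run. At an unadjusted p under 0.025 by limma, 1 member (RPL36A) was higher with 16 added in place of 1, with only probe sets above the median and with probe sets of a gene averaged, 2 (RPL27 and RPL36A) were higher and 1 (RPL26L1) was lower with the variance trend, and 1 (RPL26L1) was lower with median centring. The members' median log2 fold change was -0.055 with median centring, where all probe sets shifted to -0.125, and -0.0088 with quantile normalization. Left out in turn, the arrays gave medians from 0.024 (without control replicate 3) to 0.22 (without control replicate 2), no calls, 5 to 39 members with every 5-Aza array above (39 without control replicate 2, against 15.9% of all probe sets, and 13 without 5-Aza replicate 1, against 14.5%) and 1 to 3 with every 5-Aza array below (3 without control replicate 3, against 9.15%). Those counts were 5 above and 6 below with quantile normalization (7.13% and 6.86% of all probe sets), 1 and 5 with median centring (4.30% and 15.1%), 8 and 2 with probe sets of a gene averaged (9.79% and 5.38% of all genes), and 8 and 8 with each array centred on the members (4.92% and 7.75%), a setting chosen after the data had been seen. The cause was not tested. With the replicate block the median was 0.1317 with 0 calls, and the deviations of same-numbered arrays were uncorrelated (r from -0.012 to 0.0097), so the numbers were not taken to pair arrays. The other alternatives' values were followed singly for 17 of the members, RPL27 not among them. Of these values, 220 stayed within the spread or on the same side of the threshold, 25 moved by more than the spread and 6 passed the threshold. Without _x_at probe sets, 51 members remained to be read. For bright probe sets the signal over background was not the limit, while RPL3L and RPL39L lay at the background. The bright members lay near the top of the range instead. The highest signal on any array was 66352.7, and RPS23 itself was the highest on control replicates 1 and 3. Whether signals so near the top understate a difference was not tested.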
